A study of Mus musculus with 7 samples.

Results

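This account follows 9 genes tied to extracellular ATP and adenosine in regulatory T (Treg) cells, out of 21902 genes with a symbol on the array. They were chosen by name: the ectoenzymes Nt5e and Entpd1, the adenosine receptors Adora2a and Adora2b, and the ATP-gated channels P2rx7 and P2rx4. The adenosine-removing enzymes Ada and Adk were also chosen, and Dpp4 was grouped with them. Each had 1 probe set, and all 9 passed the filter on dim genes. Treg cells, a class of CD4 T cell defined by the transcription factor Foxp3, hold back immune responses. The arrays came from sorted CD4+ YFP+ cells out of spleen and pLN of mouse chimeras, and no age or background strain is given for them. The 3 KO samples were Foxp3Cre Pggt1bfl/fl and the 4 Het samples Foxp3Cre Pggt1bfl/wt, so both groups carry the Cre that follows Foxp3 and at least 1 floxed Pggt1b allele, and no group with 2 unfloxed alleles is used here. Pggt1b encodes a subunit of the enzyme that attaches geranylgeranyl lipids to proteins. The hosts of the chimeras are not described. Nothing says that each sample had its own animal, so the p-values rest on a spread between samples that may be technical.

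Extracellular ATP is released by stressed and dying cells. CD39, the product of Entpd1, trims ATP and ADP to AMP, and CD73, the product of Nt5e, turns AMP into adenosine. Mouse Treg cells are known for carrying both, and adenosine acts on neighbouring T cells through the receptor Adora2a, which raises cyclic AMP (cAMP). Adenosine is cleared by adenosine deaminase (Ada), which converts it to inosine, and by adenosine kinase (Adk), which turns it back into AMP inside the cell. The channel P2X7 opens at high ATP, and in mouse T cells it can also be opened by ADP-ribosylation through the enzyme ART2.2.

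Of 12 T and Treg cell markers, 11 were above the floor on every array, Foxp3, Cd4 and Cd3e among them, and the exception was Il2ra (1 of 3 KO and 2 of 4 Het arrays). Of the same 12 markers 2 fell in KO, against 3.24% of all tested genes. These were Ikzf2, by 1.22 (adjusted p = 0.00173), and Ctla4, by 0.80 (adjusted p = 0.0212, limma). In 6 of the 12 the KO values all lay below the Het values, against 9.82% of all tested genes. The floor is the 95th percentile of olfactory receptor probe sets on each array, 5.48 to 5.77 on the log2 scale. The Pggt1b probe set differed by -0.37 ± 0.13 (SE) on the log2 scale between KO and Het, with an adjusted p of 0.126 (limma), and where its probes lie relative to the deleted part is not given, so it checks the deletion only weakly. Myeloid markers were higher on the KO arrays: 13 of 20 tested markers rose and none fell, against 2.55% of all tested genes that rose, and the mean log2 value of all 21 markers was 8.23, 7.10 and 7.42 in KO samples 1 to 3 against 5.96 to 6.46 in Het samples. Of these 21 markers, 4 were below the floor on every Het array and 0 on every array. C1qc, Cd14 and Mrc1, among the 13 that rose, passed the filter only through the KO arrays, where they are high. Csf1r and Itgam were above the floor on 2 Het arrays, and Mpeg1 and Fcer1g on 1, so these also needed KO arrays to reach the 3 required. The count of 13 thus rests in part on the filter. Of 9 plasmacytoid dendritic cell markers 3 rose, against 2.55% of all tested genes, with means of 7.87 to 8.21 in KO and 7.22 to 7.49 in Het samples. Of 10 B cell markers, 6 were tested and none passed. Of 7 tested conventional CD4 T cell markers 1 rose and 1 fell, against 2.55% and 3.24% of all tested genes. The mean of all 8 listed was 8.42 to 8.78 in KO and 8.24 to 8.27 in Het samples. Pde3b had the largest difference of the 8 (1.70), and Cd226 (-0.56), Igfbp4 (-0.06) and Il2 (-0.08) were lower in KO, so the list did not move as 1. Of 4 tested CD8 T and NK cell markers 1 rose (Cd8b1) and 1 fell (Nkg7), against 2.55% and 3.24% of all tested genes. The other 5 of the 9 listed were below the floor on every array. The part of these other cells in the results below was not tested. Values without KO sample 1, the sample with the highest myeloid level, are given below as sample omissions only, since KO samples 2 and 3 also lay above every Het sample in the myeloid mean.

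The promoters of both ectoenzyme genes are shown because the 2 enzymes act in sequence on the same nucleotide and had the 2 largest differences of the 9 genes. Each run covers 250 bases before and 50 after a RefSeq start (GRCm38.p6), 5′ to 3′ on the gene's own strand, and Entpd1 has 2 starts. Capitals mark the cAMP response element half-site TGACG and the GC box GGGCGG, searched on both strands, so that they also appear as CGTCA and CCGCCC.
Nt5e, chr9:88327359-88327658, + strand: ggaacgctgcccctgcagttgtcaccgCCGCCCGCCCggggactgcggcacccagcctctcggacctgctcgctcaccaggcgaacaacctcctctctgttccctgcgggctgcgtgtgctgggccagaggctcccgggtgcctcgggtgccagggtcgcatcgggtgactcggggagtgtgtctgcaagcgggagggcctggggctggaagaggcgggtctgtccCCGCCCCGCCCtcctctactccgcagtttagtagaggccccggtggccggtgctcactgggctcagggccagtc
Entpd1 first start, chr19:40612116-40612415, + strand: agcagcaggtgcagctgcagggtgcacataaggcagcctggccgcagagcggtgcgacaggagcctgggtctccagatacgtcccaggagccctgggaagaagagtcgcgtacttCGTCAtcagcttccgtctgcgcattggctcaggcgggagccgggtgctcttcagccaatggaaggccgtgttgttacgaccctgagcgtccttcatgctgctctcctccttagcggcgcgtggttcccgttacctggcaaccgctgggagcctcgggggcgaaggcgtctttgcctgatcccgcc
Entpd1 second start, chr19:40659520-40659819, + strand: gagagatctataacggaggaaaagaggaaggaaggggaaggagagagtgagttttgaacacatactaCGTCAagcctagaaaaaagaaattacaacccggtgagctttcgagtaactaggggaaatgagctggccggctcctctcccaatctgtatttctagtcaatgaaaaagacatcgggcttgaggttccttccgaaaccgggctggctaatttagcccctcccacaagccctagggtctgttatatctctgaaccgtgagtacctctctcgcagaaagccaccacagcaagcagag
The Nt5e window held 4 GC boxes in 2 clusters, with overlap between them, no half-site, and a GC content of 71.0%. Both Entpd1 windows held 1 half-site and no GC box, at GC contents of 64.0% and 48.7%. Of 32851 promoter windows of the same length, 20.8% held the half-site and 35.7% the GC box, and the median GC content was 52.7%. Neither gene's windows held the forkhead motif GTAAACA on either strand, which 3.65% of all windows hold. These matches describe the letters and not binding. Promoters were matched for 8 of the 9 genes.

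Of the 9 genes, 1 passed the test between KO and Het cells: Nt5e fell. The other 8 did not pass, against 5.79% of all 13083 tested genes that did (limma, Benjamini-Hochberg adjusted p under 0.05), 2.55% higher and 3.24% lower in KO. The median difference of the 9 genes was -0.33 on the log2 scale, against -0.02 over all tested genes. In 5 of the 9 genes the KO and Het values did not overlap, 4 with KO below Het (Nt5e, Entpd1, Adora2a and Adk) and 1 with KO above it (Ada). Over all tested genes the groups did not overlap in 19.5%, with KO above Het in 9.68% and below it in 9.82%. Fewer cells of a type and less RNA per cell cannot be told apart in these bulk samples.

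**Figure D1:**
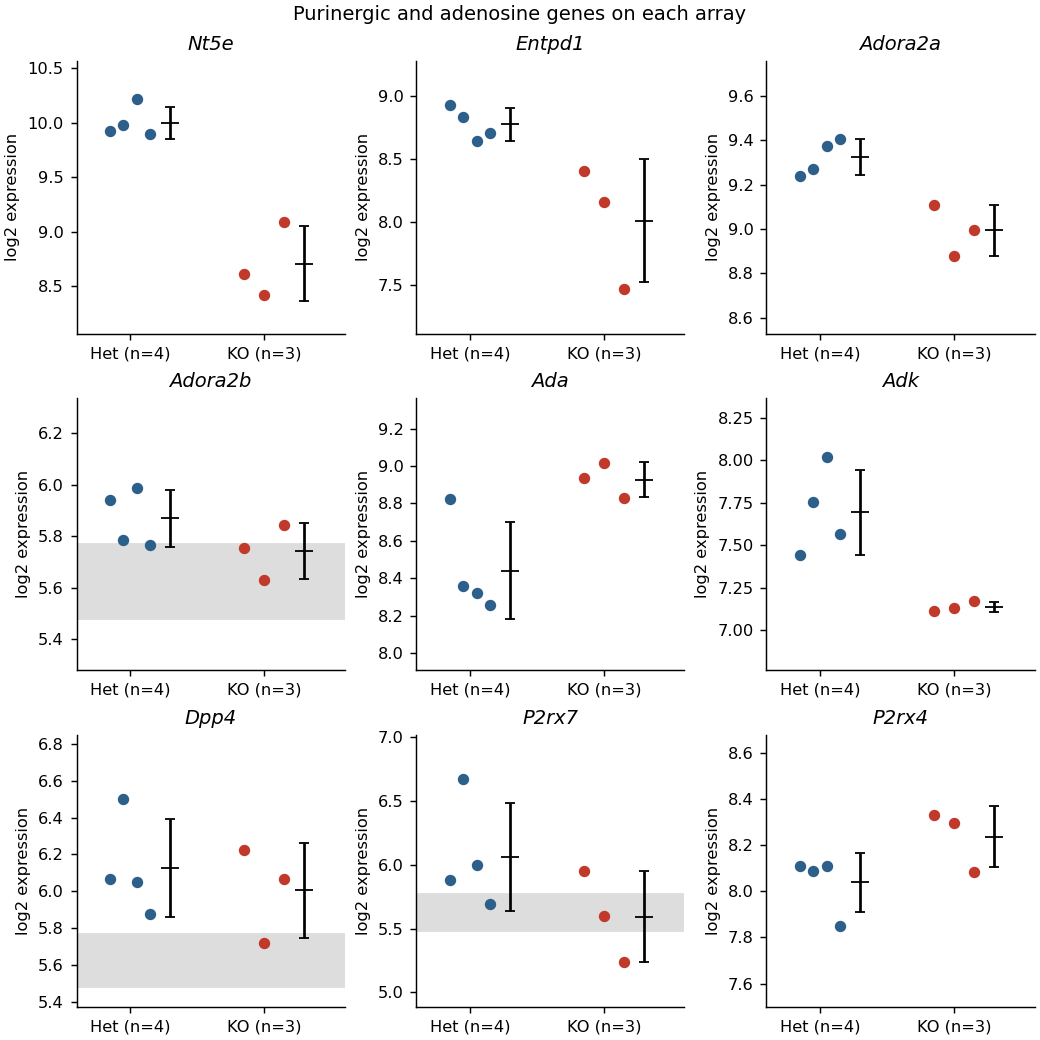
Log2 expression of the 9 genes on each array, with 4 Het (blue) and 3 KO (red) points a gene, and the group mean and SD in black beside them; the grey band is the range of the floors over the arrays and appears where a gene lies near it. Nt5e, Entpd1, Adora2a and Adk have KO points all below the Het points, Ada has them above, and the axes differ between genes.

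Nt5e, the enzyme that makes adenosine, showed the largest difference. It read 8.62, 8.42 and 9.09 on KO arrays 1 to 3, while Het arrays 1 to 4 gave 9.92, 9.97, 10.21 and 9.89 on the log2 scale. The lowest Het value stood 0.81 above the highest KO value, and KO sample 3 was the highest of its group. The KO level was 8.71 ± 0.34 (SD, n = 3), and the SD of the Het values was 0.15 (n = 4). The fall was 1.29 ± 0.16 (SE) on the log2 scale, or 2.45-fold with a 95% interval of 1.90 to 3.15, at an adjusted p of 0.00128 (limma). By p it was gene 102 of 13083. It passed in all 14 other settings, including each omission of 1 sample. Without KO sample 1 the difference was -1.25. The part of the higher myeloid markers of all 3 KO samples in this fall was not tested.

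Entpd1, whose product supplies CD73 with AMP, lay on the edge of the threshold. On KO arrays 1 to 3 it measured 8.40, 8.16 and 7.46, and on Het arrays 1 to 4 it measured 8.92, 8.83, 8.64 and 8.70. The groups were 0.23 apart, with the KO values more widely spread (SD 0.49 against 0.13). The difference of -0.77 ± 0.20 (SE) had an adjusted p of 0.050015, just above the threshold of 0.05, and a fold interval of 1.25 to 2.31 around 1.70-fold. Entpd1 is also made by macrophages, whose markers were higher in all 3 KO samples, and their part in its values was not tested. Without KO sample 1 the difference was -0.96 and passed (adjusted p = 0.0263). Without KO sample 3 it was -0.49 and did not pass (adjusted p = 0.113). KO sample 3 had the highest Nt5e and the lowest Entpd1 of the 3 KO samples, and in KO sample 2 both enzymes read lower than in KO sample 1.

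Adora2a encodes the main adenosine receptor of T cells, which raises cAMP. Its probe set read 9.11, 8.88 and 8.995 on KO arrays 1 to 3, while Het arrays 1 to 4 gave 9.24, 9.27, 9.37 and 9.41. All KO readings were under the Het readings, by a gap of 0.13. The difference of -0.33 ± 0.11 (SE) did not pass (adjusted p = 0.131), and its 95% interval ran from -0.58 to -0.08, which leaves out a change as large as that of Nt5e. Adora2b encodes a receptor that needs more adenosine. It was near the floor, with 2 of 3 KO and 3 of 4 Het arrays above it. KO values of 5.63 to 5.84 overlapped Het values of 5.77 to 5.99, and the difference of -0.13 ± 0.12 (SE) had an adjusted p of 0.605.

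The 2 enzymes that remove adenosine differed in opposite directions. Ada read 8.93, 9.01 and 8.83 on KO arrays 1 to 3, while Het arrays 1 to 4 gave 8.82, 8.36, 8.32 and 8.26. Het sample 1 stood well above the other Het samples and came within 0.0059 of the lowest KO value. The difference of 0.49 ± 0.15 (SE), 1.40-fold, did not pass with all samples (adjusted p = 0.0931) and passed without Het sample 1, at 0.61 (adjusted p = 0.0206).

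Adk read 7.11, 7.13 and 7.17 on KO arrays 1 to 3, while Het arrays 1 to 4 gave 7.44, 7.75, 8.02 and 7.56. The KO values were the tightest of any of the 9 genes (SD 0.03) and the Het values were spread over more than 0.5 log2 units. The difference of -0.56 ± 0.14 (SE), 1.47-fold, had an adjusted p of 0.050015, again just above the threshold, and without Het sample 1 it was -0.64 and passed (adjusted p = 0.0399). Het sample 1 was thus the sample closest to KO for both enzymes.

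Dpp4 encodes CD26, a surface peptidase that binds adenosine deaminase on human T cells. It was dim and read 6.22, 5.72 and 6.07 on KO arrays 1 to 3, while Het arrays 1 to 4 gave 6.07, 6.50, 6.05 and 5.88. The groups overlapped, at a difference of -0.12 ± 0.17 (SE) with a 95% interval of -0.50 to 0.26 (adjusted p = 0.77). The sign turned to 0.0225 without KO sample 2 and to 0.0067 without Het sample 2.

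**Figure D2:**
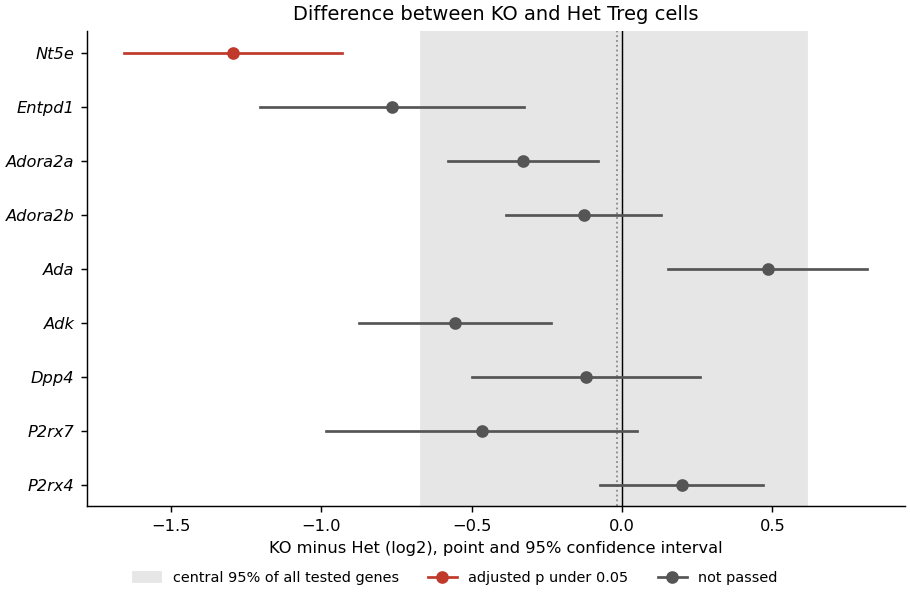
KO minus Het difference on the log2 scale for each of the 9 genes, with 95% confidence intervals from limma; red marks an adjusted p under 0.05, the grey band holds the central 95% of all 13083 tested genes (-0.67 to 0.62) and the dotted line is their median. Nt5e lies outside the band at -1.29, Entpd1 at -0.77 lies just outside it with an interval that reaches into it, and the intervals of Adora2b, Dpp4, P2rx7 and P2rx4 hold 0.

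The ATP-gated channels P2rx7 and P2rx4 are next to each other on chromosome 5, with 0 protein-coding genes between them in RefSeq, and neither passed. P2rx7 read 5.95, 5.60 and 5.24 on KO arrays 1 to 3, while Het arrays 1 to 4 gave 5.88, 6.67, 5.998 and 5.69. It was above the floor in 1 of 3 KO and 3 of 4 Het arrays, so its level is poorly measured here, and Het sample 2 was the highest. The difference was -0.47 ± 0.23 (SE; adjusted p = 0.305), and -0.26 without Het sample 2. P2rx4, a channel that responds to lower ATP and is also found in macrophages, was bright on all arrays. It read 8.33, 8.30 and 8.08 on KO arrays 1 to 3, while Het arrays 1 to 4 gave 8.11, 8.09, 8.11 and 7.85. The difference of 0.20 ± 0.12 (SE) did not pass (adjusted p = 0.417), and its 95% interval of -0.07 to 0.47 leaves out a 2-fold change in either direction.

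Exact permutation tests (two-sided, all 35 ways to divide the arrays) gave unadjusted p-values of 0.0286, the smallest this design can give, for Nt5e, Entpd1 and Adora2a, and of 0.0571 for Ada and Adk. They gave 0.143 to 0.686 for the other 4 genes.

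**Figure D3:**
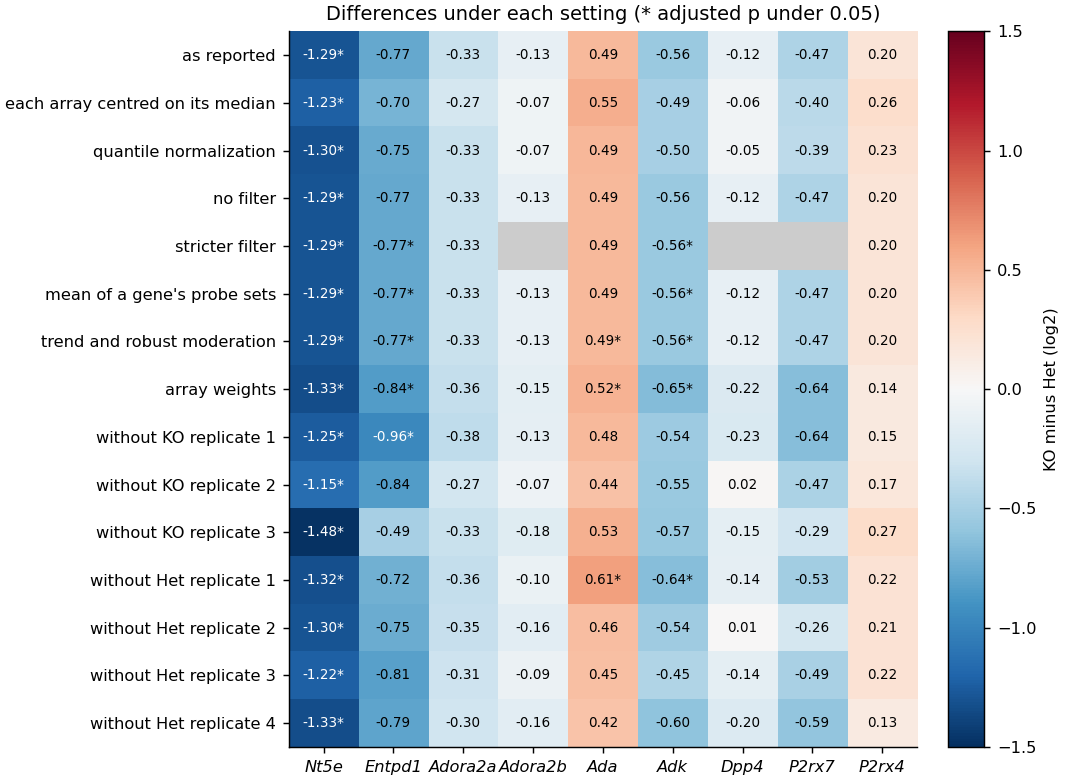
KO minus Het difference (log2, colour and number) of the 9 genes as reported and under 14 other settings, with an asterisk for an adjusted p under 0.05 and grey where a stricter filter removed the gene. Nt5e has an asterisk in every line, Entpd1 and Adk each in 5 of the 14 other settings and Ada in 3.

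The wider purinergic pathway was described from a list of 91 other genes, of which 89 were on the array and 61 passed the filter. Among these 61, 5 rose and 4 fell, or 14.8%, against 5.79% of all tested genes, at a median difference of -0.06. The list was chosen with earlier results of these data known, so this share is no independent test of the pathway. The 4 that fell also include the near copies Art2b and Art2a-ps, which are not separate observations. In 19 of the 61 the groups did not overlap, against 19.5% of all tested genes. P2ry13, among the 5 that rose, met the filter only through the KO arrays. Genes that did not reach the filter included the receptors Adora1, P2rx2, P2rx3, P2rx5, P2ry1, P2ry2 and P2ry4, which were below the floor on every array.

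Of 7 tested genes tied to P2X7, 3 probe sets fell and 1 rose, against 5.79% of all tested genes that passed, at a median of -0.46; the 3 falls include the near copies Art2b and Art2a-ps. Art2b, the ART2.2 enzyme that ADP-ribosylates P2X7 on mouse T cells, read 6.01, 6.10 and 6.47 on KO arrays 1 to 3, while Het arrays 1 to 4 gave 7.21, 7.27, 7.30 and 6.90. The groups were well apart, and the fall was 0.98 ± 0.15 (SE) on the log2 scale or 1.97-fold (adjusted p = 0.00371). The probe set named Art2a-ps, listed as Art2a in RefSeq, is a near copy of Art2b and fell 2.15-fold (adjusted p = 0.00758). Whether its probes and those of Art2b take up each other's transcript is not given, so these are not 2 separate observations.

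Casp1, the inflammasome protease caspase-1 that acts downstream of P2X7 in macrophages, read 8.49, 7.45 and 8.03 on KO arrays 1 to 3, while Het arrays 1 to 4 gave 9.23, 9.25, 9.40 and 8.998. It fell 2.35-fold, by 1.23 ± 0.21 (SE; adjusted p = 0.00731), and its highest KO value was that of the sample with the highest myeloid level. Its adaptor Pycard differed by -0.46 ± 0.16 and did not pass (adjusted p = 0.132), and Nlrp3 was below the floor on every array. Ano6, a phospholipid scramblase, rose by 0.67 ± 0.12 (SE; adjusted p = 0.00857), with Het values of 8.72 to 9.03 and KO values of 9.47 to 9.64. The calls of Art2b, Art2a-ps, Casp1 and Ano6 held in all 14 other settings.

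**Figure D4:**
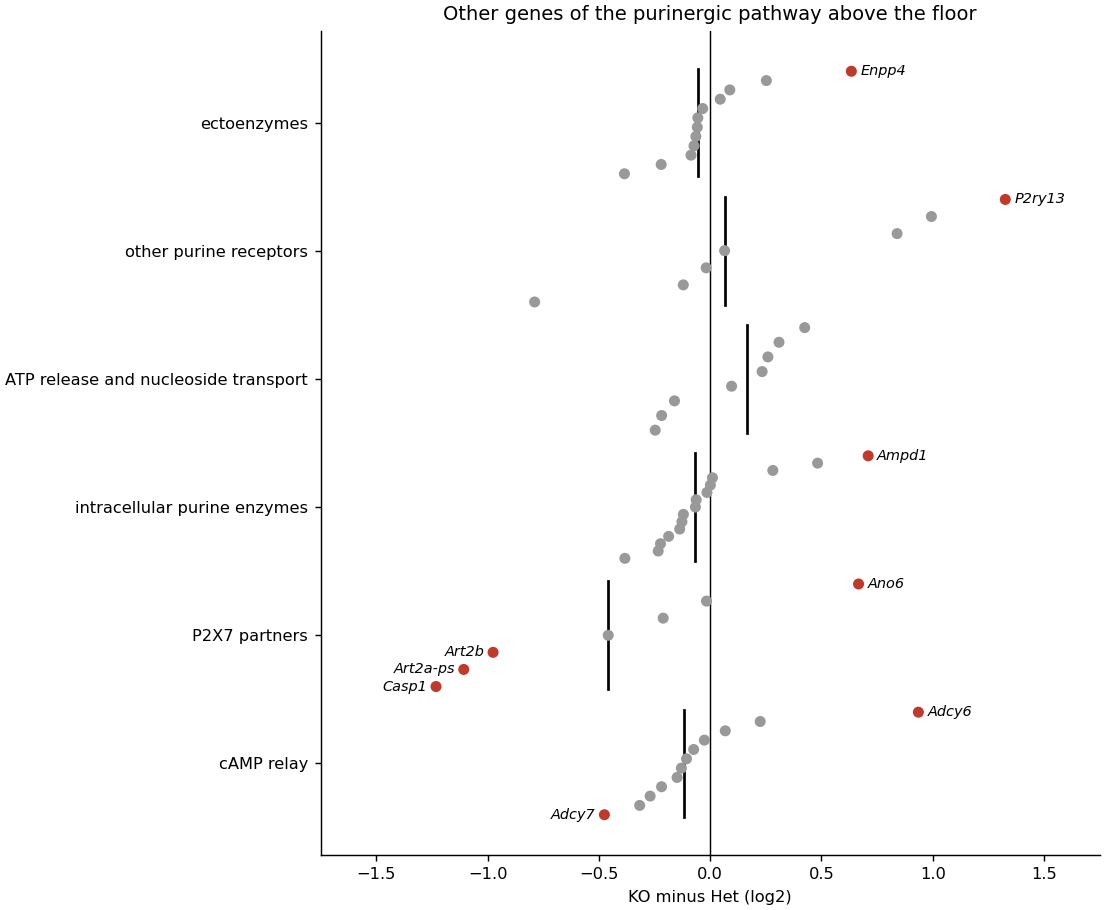
KO minus Het difference (log2) of the 61 other purinergic genes above the floor, 1 point a gene, by group; named red points passed at an adjusted p under 0.05 and vertical bars are group medians. The 4 genes that passed among P2X7 partners lie on both sides of 0, and no gene of ATP release and nucleoside transport passed.

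Of 7 tested purine and related receptors 1 rose, against 2.55% of all tested genes. P2ry13, a receptor for ADP, read 7.01, 5.997 and 5.76 on KO arrays 1 to 3 and was below the floor on all Het arrays, so it rose at least 1.52-fold. That bound was not tested. The limma adjusted p of 0.0277 belongs to the difference of 1.33 ± 0.30 (SE), which uses the Het values below the floor. P2ry13 met the filter on dim genes only through the 3 KO arrays, so that a difference was required for it to be tested at all. P2ry13 lies beside P2ry12 on chromosome 3 and is known from macrophages and microglia. P2ry12 (7.33, 5.80 and 6.18 on KO arrays 1 to 3) and P2ry14 (6.49, 6.20 and 5.59), the former named after its values were seen, had differences of 0.99 ± 0.30 and 0.84 ± 0.23 (SE) and did not pass (limma adjusted p = 0.0895 and 0.0579). Their Het values were 5.21 to 5.80 and 4.89 to 5.68. The P2ry12 groups were 0.002 apart and the P2ry14 groups overlapped. P2ry12 was above the floor on 3 KO and 1 Het arrays and P2ry14 on 2 KO and 1 Het arrays, so both needed KO arrays to meet the filter. P2ry10, a receptor of the same family that responds to a lysophospholipid and also named after its values were seen, went the other way: it read 7.71, 6.73 and 7.25 on KO arrays 1 to 3 and 7.78 to 8.39 on Het arrays, without overlap, and its difference of -0.79 ± 0.22 (SE) did not pass (adjusted p = 0.0663). P2ry12, P2ry13 and P2ry14 were highest in KO sample 1, as was the mean of the myeloid markers, though not each single marker. That mean was lower in KO sample 2 (7.10) than in KO sample 3 (7.42), as was P2ry12, whereas P2ry13 and P2ry14 were higher in KO sample 2. The part of myeloid cells in these values was not tested. The P2ry13 call was lost without KO sample 1 (0.95, limma adjusted p = 0.0738) and without KO sample 2 (1.46). It was also lost without Het sample 1 (1.33), 2 (1.12) or 3 (1.40).

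**Figure D5:**
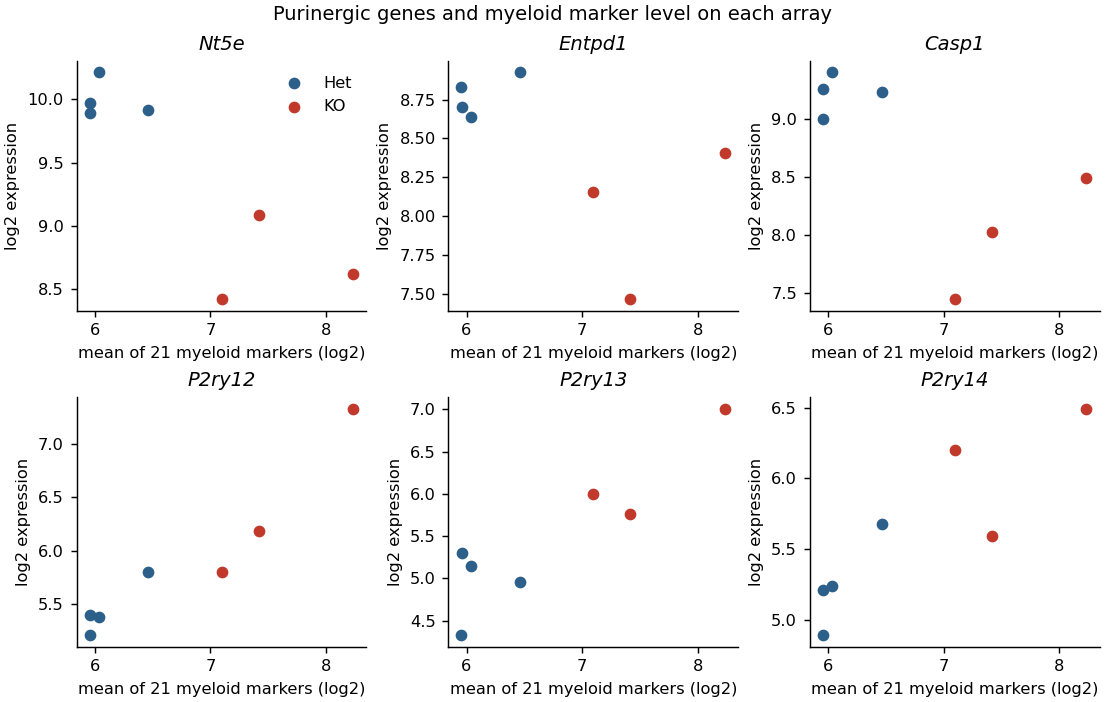
Log2 expression of 6 purinergic genes on each array against the mean log2 value of 21 myeloid markers, for 4 Het (blue) and 3 KO (red) samples. KO samples lie to the right of Het samples in each panel. P2ry12, P2ry13 and P2ry14 are highest in the sample farthest to the right. The Nt5e, Entpd1 and Casp1 values of the KO samples lie below all Het values. P2ry12 was named after its values were seen, and the part of myeloid cells in any of these values was not tested.

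Cyclic AMP genes relay the Adora2a signal. Of 12 tested members 1 rose and 1 fell, against 2.55% and 3.24% of all tested genes. Both are adenylyl cyclases, the enzymes that make cAMP. Adcy6 read 8.07, 8.02 and 7.45 on KO arrays 1 to 3, while the Het arrays gave 6.68 to 7.15, a rise of 0.94 ± 0.18 (SE) or 1.91-fold (adjusted p = 0.0128). Its call was lost without KO sample 1 (0.83) or KO sample 2 (0.85). Adcy7 ranged over 8.33 to 8.54 with KO and 8.79 to 9.05 with Het, a fall of 0.48 ± 0.12 (SE; adjusted p = 0.0401). That call was lost without any 1 KO sample (-0.52 to -0.41), without Het sample 2, 3 or 4 (-0.49 to -0.43), with each array centred on its median (-0.41) and with no filter (-0.48). The stimulatory G protein gene Gnas differed by -0.07 and the cAMP-responsive repressor Crem by -0.32, and neither passed.

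Of 12 tested ectoenzymes other than the first 2, 1 rose, against 2.55% of all tested genes. Enpp4, of the nucleotide pyrophosphatase family, read 8.41, 8.29 and 8.74 on KO arrays 1 to 3, while the Het arrays gave 7.71 to 8.02, a rise of 0.63 ± 0.14 (SE; adjusted p = 0.0238). The call was lost without KO sample 1 (0.67) or 3 (0.51) and without Het sample 1 (0.62) or 2 (0.63). Cd38, which splits the NAD that ART2.2 uses, differed by -0.39 ± 0.23 (SE; adjusted p = 0.386). The other Entpd genes tested, Entpd2 to Entpd8, differed by -0.22 to 0.25 and none passed.

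Of 15 tested purine enzymes inside the cell 1 rose, against 2.55% of all tested genes. Ampd1, an AMP deaminase that turns AMP into IMP, read 7.19, 7.52 and 7.32 on KO arrays 1 to 3, while the Het arrays gave 6.43 to 6.76, a rise of 0.71 ± 0.13 (SE; adjusted p = 0.0106) that passed in all 14 other settings. Ampd3 differed by 0.48 ± 0.15 in the same direction and did not pass (adjusted p = 0.0948). None of 8 tested genes of ATP release and nucleoside transport passed, and the smallest p among them belonged to the lysosomal nucleoside carrier Slc29a3 (0.42 ± 0.14, adjusted p = 0.125) and the vesicular nucleotide carrier Slc17a9 (0.31 ± 0.11, adjusted p = 0.143).

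The genes with the profile nearest to each of the ectoenzymes and removal enzymes were found by the root mean square difference over the 7 arrays, with each gene centred on its own mean. Nearest to Nt5e were Cldnd1 at 0.13 log2 units, the prohormone-processing enzyme Cpe at 0.16 and Smco4 at 0.17, against a spread of 0.67 for Nt5e itself about its mean. Nearest to Entpd1 were the serpin Serpina3g (0.11), the phosphatidylserine synthase Ptdss2 (0.11) and Tgfbr1, a receptor for TGF-beta (0.12), against 0.47. Hsdl1 (0.05), Megf9 (0.08) and Gsk3a (0.09) were nearest to Ada, and Zdhhc21 (0.07), Hspa4l (0.08) and Gphn (0.08) to Adk. These likenesses were the smallest among 11957 genes and carry no test.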

How the data were processed

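RNA from sorted Treg cells was amplified and hybridised to 1 single-colour array a sample, 3 KO and 4 Het. The deposited values are log2 expression made by the authors with RMA in Affymetrix Expression Console 1.1, per the submitters' processing notes. RMA corrects background and equalises intensity distributions between arrays, so a shift of most genes one way would be reduced, and dim genes have compressed differences. Neither the array design nor a genome build is given in the sources used here. Array number, not read depth, limits the precision.

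Of 28846 probe sets, 22203 carried 1 symbol. The probe set with the highest mean stood for each of 21902 genes, and 20305 symbols (92.7%) are current in the RefSeq table of GRCm38.p6. Genes were kept where at least 3 arrays exceeded the floor, the 95th percentile of 1117 olfactory receptor probe sets. The 13083 kept genes were tested together with limma 3.58.1 in R 4.3.3 (lmFit, eBayes), Benjamini-Hochberg adjustment and a threshold of 0.05, a method also tested on simulated data. Differences are KO minus Het. Where a gene was below the floor on all arrays of 1 group, the other group's mean was set against the floor and printed as "at least". Replicates were numbered in order of deposit and do not pair samples. No batch is given. The 9 genes, the other purinergic genes, the cell type markers and the tests were chosen with earlier results of these data known. Named genes are the 9, the called genes and the 2 smallest p of each pathway list, and the 3 nearest profiles. Profiles of predicted genes, small RNAs, antigen receptor segments and 24 symbols turned into dates were left out of the nearest. P2ry10, P2ry12, Pycard, Nlrp3, Gnas, Crem and the Entpd range were added after their values were seen. Other settings were 2 normalizations, 2 filters, the probe set rule, 2 weightings and the omission of each sample.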

Additional observations from a re-analysis of the deposited data

Results flagged for a closer look

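P2rx4 in the 4 Het samples had 1 sample far from the rest: Het sample 4 read 7.85 against 8.09 to 8.11 in the other 3, and the gap was 0.906 of the group's whole range. Without Het sample 4 the KO minus Het difference of P2rx4 was 0.13, against 0.20 with all samples, and neither passed. The Het values of 18 genes were examined in this way, and chance alone would mark about 1 in 20 such groups.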

How the results depend on the processing

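The fall of Nt5e held in all 14 settings, at -1.48 to -1.15 with 1 sample left out and -1.33 to -1.23 otherwise. The count of the 9 genes that fell was 1 as reported and 3 (Nt5e, Entpd1 and Adk) with the probe sets of a gene averaged, a stricter filter, trend and robust moderation, or array weights, and the count that rose was 1 (Ada) instead of 0 with trend and robust moderation or array weights. Averaging left the differences of Entpd1 (-0.77) and Adk (-0.56) unchanged, since each gene has 1 probe set. The stricter filter left them unchanged too, since it only removes other genes from the fit. With averaging the adjusted p of both genes only moved from 0.050015 to 0.0498 (limma). With the stricter filter, which tested 9776 genes, it was 0.0383 for Entpd1 and 0.0363 for Adk (limma). With 1 sample left out, 1 to 2 of the 9 genes fell and 0 to 1 rose. The adjusted p of Entpd1 ran from 0.0175 to 0.124 over the settings, that of Adk from 0.0158 to 0.137 and that of Ada from 0.0206 to 0.245. Among the other purinergic genes 8 rose with trend and robust moderation instead of 5; with 1 sample left out 2 to 5 rose and 3 to 4 fell. Over all tested genes, 333 rose and 424 fell as reported, 547 and 697 with array weights, 209 to 290 and 240 to 455 with 1 sample left out, and 406 and 291 after median centring of the arrays, so that 58.2% of the called genes were then higher in KO against 44.0%. The difference of Dpp4 ran from -0.23 to 0.0225 with 1 sample left out, and its sign turned without KO replicate 2 (0.0225) and without Het replicate 2 (0.0067). The cause of these shifts was not tested. No paired analysis was possible because the labels carry no replicate numbers. Adora2b and P2rx7 lie near the floor, where signal over background limits what can be said of them.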
